A study of Mus musculus with 12 samples.

Results

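The arsenite response of fibroblasts that lack GADD34 was read from 6 of the 12 arrays of the study: 3 of untreated knockout (KO) cells and 3 of KO cells given 0.1 mM sodium arsenite for 2 h. These arrays were chosen by the genotype and treatment code in the headers of the deposited table, and each treated array was set against the untreated array of the same replicate experiment. The other 6 arrays held wildtype (WT) cells, untreated or treated in the same way, and serve here only to show where the KO response differed. All cells were mouse embryonic fibroblasts from embryos of 12.5 to 14.5 days, immortalised with the SV40 large T antigen, and the strain label of both genotypes names the allele Ppp1r15A tm1.1.Ajf/Mmnc, on the background B6.129P2, together with C57Bl/6. KO cells were homozygous for the deletion, which the WT cells did not carry. The labels do not say how many embryos or independent lines stood behind each genotype. The p-values rest on the scatter left after shifts shared by all groups of a replicate experiment were removed, pooled over both genotypes. They cannot be read as a measure of the spread between embryos or lines. Large T antigen binds p53 and the retinoblastoma protein, which limits these cells as a model of growth arrest.

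GADD34 is encoded by Ppp1r15a. Stress induces this regulatory subunit, which directs a phosphatase to the phosphorylated form of eIF2-alpha, and translation can then resume. Arsenite binds thiol groups and damages proteins. It is known to set off several transcriptional programs at once, namely the immediate early genes downstream of MAP kinases, heat shock genes through HSF1, heme oxygenase and glutathione genes through NRF2, metallothioneins through MTF1, and the ATF4 and CHOP program through phosphorylated eIF2-alpha.

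Values are log2 signals after the authors' normalisation. A change is the mean log2 signal under arsenite minus that of untreated cells (n = 3 arrays a group), given with its standard error (SE). The SE is limma's and rests on a spread shared by both genotypes, so each gene has the same SE in KO and WT cells. It does not measure the spread of the KO arrays alone. A gene passed the threshold when limma's adjusted p over all 20753 genes lay under 0.05. Array medians were 5.92 to 5.96. Arrays correlated across genes at 0.988 to 0.994 among untreated and at 0.985 to 0.992 among treated KO cells, a description over genes that are not independent. The median gene had an SD of 0.145 in untreated and of 0.157 in treated KO cells, against 0.129 and 0.125 in WT cells. A level of 5.347, the 40th percentile of all array values, is used as a mark for dim signals.

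The targeted gene was read first. Ppp1r15a lay at 6.42, 6.34 and 6.20 in untreated and at 6.27, 6.71 and 5.88 in treated KO cells (experiments 1, 2 and 3). The KO groups overlapped, and the change of -0.03 ± 0.20 did not pass the test (adjusted p = 0.928). In WT cells the same probe set rose by 3.40 ± 0.20, from a mean of 8.63 to 12.03, so the arrays followed their genotype labels. Where the probe set lies relative to the deleted part was not analysed here.

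The cells carried fibroblast transcripts. Vim and Col1a2 stood at means of 14.83 and 14.66 in untreated KO cells, and Fn1 at 13.98. The marker counts in this paragraph stand beside 14.7% of all 20753 genes that passed the threshold, 6.63% risen and 8.07% fallen. These shares are not matched for signal level. Of 12 fibroblast markers 1 rose and 3 fell (median -0.05), and Thy1 and Fap stayed under 5.347 in both KO groups. Fn1, which encodes fibronectin, rose by 0.42 ± 0.10. Pdgfra, a growth factor receptor of mesenchymal cells, fell from 7.80, 7.40 and 7.25 to 6.65, 6.41 and 6.32, a change of -1.02 ± 0.22. Prrx1, a mesenchymal homeobox factor, fell by 0.93 ± 0.10 on the log2 scale and Twist1 by 0.40 ± 0.11. In extracts of whole cultures, fewer cells of a type and less RNA per cell cannot be told apart. Among markers of other cells, none of 10 epithelial markers passed the test, and 1 of 8 endothelial (Pecam1, at 4.03 and 4.48), 1 of 11 macrophage and blood (Cd14, lower), 1 of 11 muscle (Actc1) and 1 of 10 neural markers (Nes) did. The mean log2 level of the epithelial list spanned 5.96 to 6.05 untreated and 6.03 to 6.35 under arsenite, and that of the macrophage and blood list 5.47 to 5.52 and 5.50 to 5.72. Ptprc, Itgam, Cdh1, Cdh5 and the myogenic factor Myf5 were under 5.347 in both KO groups, while Krt19 was at 10.01 and 10.09 and Epcam at 7.44 and 7.47.

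Arsenite changed 3051 genes in KO cells, which is 14.7% of the 20753 tested. Of these 1376 (6.63%) rose and 1675 (8.07%) fell. Rises were larger than falls: 290 genes rose and 140 fell by at least 2-fold, and 38 rose but 1 fell by over 3 log2 units. The median change was 0.56 among risen genes, -0.51 among fallen genes and 0.03 over all genes. Centring each array on its median in place of the authors' scaling gave 1047 rises and 2373 falls, so the share of rises among calls, 45.1% here, dropped to 30.6%. Of the called genes, 3046 of 3051 had the same sign in all 3 experiments. Their call rests on these same changes, so this count is no separate evidence. The 6 arrays did not overlap for 4906 genes (23.6%), and 2386 genes (11.5%) were both called and not overlapping. With genes split by signal into 5 equal bins, 10.9% rose and 16.2% fell in the brightest bin, and 1.69% and 0.94% in the dimmest. The counts of list members below stand beside 6.63% risen and 8.07% fallen over all genes, shares not matched for signal level. Without the replicate experiment as a block 1566 genes passed, 777 up and 789 down.

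**Figure D1:**
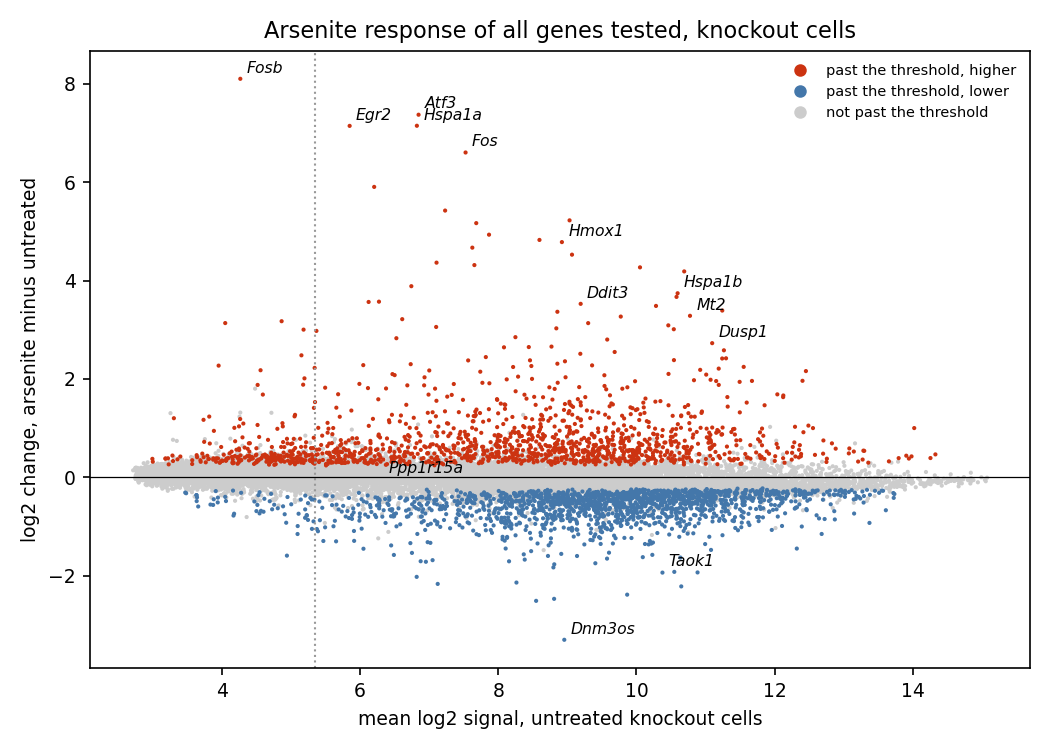
Change under arsenite (log2, arsenite minus untreated) of each of 20753 genes in GADD34 knockout cells against its mean log2 signal in untreated knockout cells. Red points rose and blue points fell past the threshold, grey points did not pass, and the dotted line marks 5.347. The rises reach 8.10 (Fosb), the falls -3.31 (Dnm3os), and Ppp1r15a sits at -0.03.

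Immediate early transcription factors gave the largest rises. Of 30 measured members 27 rose and none fell, with a median change of 3.25 against 0.03 for all genes. Fosb, a partner of Jun proteins in the AP-1 factor, went from 4.10, 4.72 and 3.98 to 12.71, 12.08 and 12.32. Its untreated level was under 5.347 on all 3 arrays, so the fitted change of 8.10 ± 0.24 was measured from a dim signal, and against 5.347 itself the rise was at least 130-fold. Atf3, a repressor of the ATF/CREB family, went from 6.82, 6.94 and 6.78 to 14.39, 14.22 and 14.04, a change of 7.37 ± 0.12 (166-fold). The 3 experiments lay close together in both groups for Atf3. Egr2, a zinc finger factor, went from 6.80, 6.23 and 4.52 to 13.33, 12.88 and 12.77 (7.15 ± 0.38). For Egr2 the untreated arrays were the ones that spread, and the treated ones lay close together. Fos, the founding AP-1 member, went from 8.03, 7.30 and 7.25 to 14.48, 13.73 and 14.18 (6.60 ± 0.25).

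Arc, an early gene best known from neurons, went from 6.18, 6.19 and 6.24 to 12.38, 11.92 and 12.03 (5.90 ± 0.16). The orphan nuclear receptor Nr4a1 rose by 5.22 ± 0.44, Csrnp1 by 5.17 ± 0.21, Egr3 by 4.83 ± 0.57, Junb by 4.67 ± 0.18 and the antiproliferative Btg2 by 4.53 ± 0.28. A second probe set of Egr3 changed by 0.35 and one of Csrnp1 by 0.36, so these rises rest on 1 probe set each. Jun rose by 3.67 ± 0.28 and Egr1 by 4.19 ± 0.47, with untreated Egr1 at 11.78, 11.37 and 8.93. The 3 members that did not pass were Klf2 (0.90 ± 0.44, adjusted p = 0.206), Klf4 and Myc (0.59 and 0.50). Klf2 lay at 7.94, 9.05 and 7.49 untreated and at 9.36, 8.53 and 9.31 treated, so it was lower in experiment 2 and higher in the others.

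**Figure D2:**
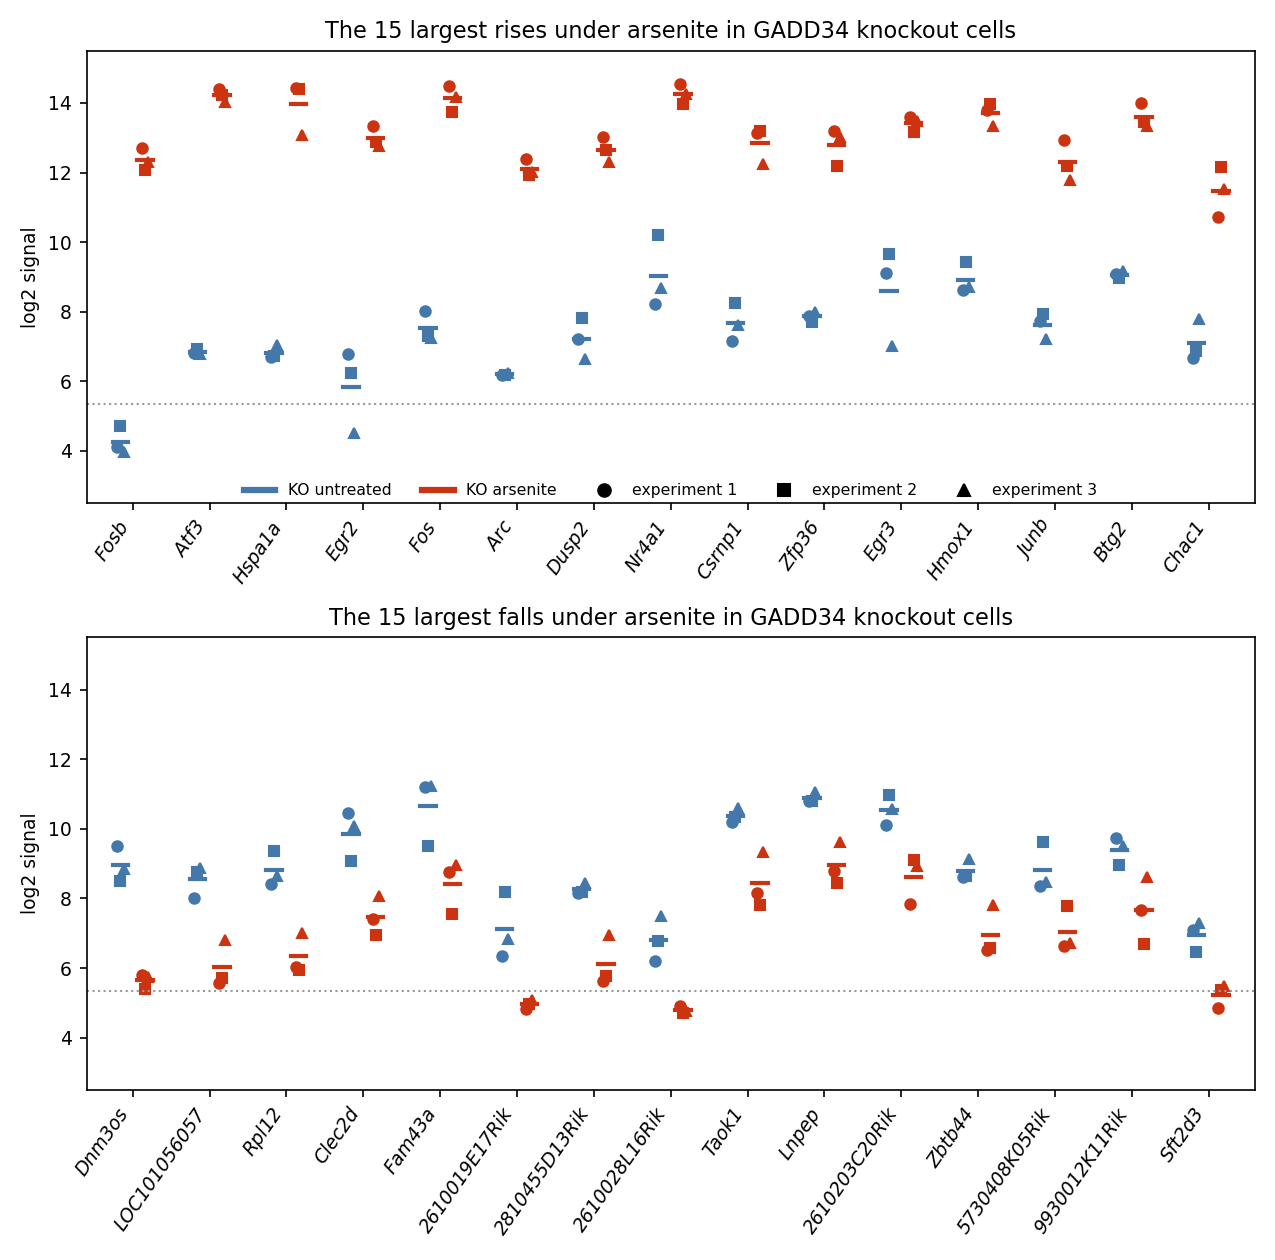
Log2 signal of the 15 genes with the largest rises (top) and the 15 with the largest falls (bottom) on each KO array; blue is untreated, red is arsenite, the symbol gives the experiment, bars are group means (n = 3) and the dotted line marks 5.347. The genes were drawn from those past the threshold whose groups did not overlap, so the gaps follow from the choice. Hspa1a under arsenite shows experiment 3 at 13.08 against 14.44 and 14.40.

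Upstream sequence was set beside these rises because the serum response element (a CArG box, bound by SRF) and the cAMP response element (bound by CREB and ATF factors) are the textbook elements of early genes. The sequences are RefSeq promoter windows of 250 bases before to 50 after each start site (GRCm38.p6), and 14487 of the 20753 tested genes had one. In the stretches printed here, 5′ to 3′ on the gene's strand, capitals mark the motif match. Most early factors held neither element in the window. Of 22 immediate early genes with a window, 2 held a CArG box (Egr2 and Srf) and 2 a cAMP response element (Btg2 and Maff). Counted by window, 5 of 31 (16.1%) held a CArG box, against 1.35% of the windows of all tested genes. For the cAMP response element it was 2 of 31 (6.45%), against 2.52%. Fos and Fosb were among those with neither. Elements outside the window or with other letters were not searched, so a gene without a match may still have the element. Only matches are printed. CArG boxes stood in front of Egr2, Zfp36 and Dusp5, the last with a pair of adjoining boxes.
Egr2 (chr10:67537469-67537528, plus strand): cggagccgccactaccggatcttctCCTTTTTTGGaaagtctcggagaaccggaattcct
Zfp36 (chr7:28379252-28379311, minus strand): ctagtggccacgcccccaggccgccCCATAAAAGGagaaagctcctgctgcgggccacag
Dusp5 (chr19:53529038-53529107, plus strand): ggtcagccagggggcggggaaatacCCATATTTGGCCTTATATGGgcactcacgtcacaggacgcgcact
The cAMP response element, searched as TGACGTCA, stood in front of Btg2, Maff, Dusp1 and Errfi1.
Btg2 (chr1:134079289-134079346, minus strand): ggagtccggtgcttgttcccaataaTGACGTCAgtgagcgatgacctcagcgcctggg
Maff (chr15:79347466-79347519, plus strand): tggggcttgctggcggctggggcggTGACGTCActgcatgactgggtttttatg
Dusp1 (chr17:26508583-26508640, minus strand): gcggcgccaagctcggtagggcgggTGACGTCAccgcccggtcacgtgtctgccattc
Errfi1 (chr4:150854994-150855051, plus strand): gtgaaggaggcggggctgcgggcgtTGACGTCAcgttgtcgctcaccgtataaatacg

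Across promoter windows of all tested genes, read on both strands, 1.35% held a CArG box, 2.52% a cAMP response element and 4.45% an AP-1 site (TGANTCA with C or G at N). In the 297 windows of genes that rose by at least 2-fold these shares were 5.39%, 7.07% and 9.09%. In the 104 windows of genes that fell by at least 2-fold they were 1.92%, 0.962% and 2.88%. A cAMP response element is not itself a match to the AP-1 letters. The shares are descriptions of letters in a window, and the motifs were chosen after windows had been seen.

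Phosphatases and adaptors that switch MAP kinases and growth factor receptors off rose with the early factors. Of 20 measured members 15 rose and 1 fell, with a median change of 1.11. Dusp2, a nuclear phosphatase of ERK and p38, went from 7.22, 7.82 and 6.66 to 13.01, 12.66 and 12.30, a change of 5.42 ± 0.21 (42.9-fold). Errfi1, an inhibitor of the EGF receptor, went from 10.47, 11.38 and 9.53 to 13.42, 13.68 and 13.55 (3.09 ± 0.28). Dusp1 went from 10.86, 11.28 and 11.16 to 13.81, 13.91 and 13.75 (2.73 ± 0.14). In all 3 genes the treated arrays lay closer together than the untreated ones. Spred1, an inhibitor of the Ras to ERK path, was the 1 member that fell (-0.56). Dusp6, a cytosolic ERK phosphatase, changed by 0.79 ± 0.39 with overlapping arrays and did not pass (adjusted p = 0.205).

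Of 27 secreted growth factors and cytokines 12 rose and none fell, with a median of 0.58. Cxcl10, a chemokine for T cells, went from 5.90, 4.81 and 5.40 to 9.36, 8.43 and 7.23 (2.98 ± 0.35). Gdf15, a stress-induced TGF-beta relative, went from 8.53, 7.89 and 8.96 to 11.17, 10.17 and 11.16 (2.38 ± 0.25). Areg, an EGF receptor ligand, went from 4.60, 6.96 and 4.47 to 6.14, 9.07 and 7.48, and its groups overlapped although the change of 2.22 ± 0.47 passed. Experiment 2 was the highest in both groups for Areg. Other EGF receptor ligands, Hbegf (1.98) and Ereg (1.83), rose too, as did Vegfa (2.00) and Il6 (1.90). Members with a change near 0 were Tnf (0.06), Ccl2 (0.07), Csf1 (0.08) and Cxcl2 (0.08).

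Among 18 NF-kB subunits, inhibitors and regulators 7 rose and none fell, with a median of 0.28. Rel, the c-Rel subunit, went from 5.91, 6.00 and 6.91 to 10.23, 9.96 and 9.34 (3.57 ± 0.29). Ptgs2, the inducible cyclooxygenase, went from 10.23, 12.85 and 10.81 to 13.07, 14.14 and 13.94 (2.42 ± 0.41). Relb rose by 1.87 ± 0.13. The classical feedback targets of NF-kB did not pass: Nfkbia changed by 0.11, Birc3 by -0.05 and Tnfaip3 by 0.75 ± 0.35 (adjusted p = 0.187), the last with overlapping arrays at 8.10, 9.15 and 7.60 untreated and 8.13, 9.94 and 9.02 treated.

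In cells without GADD34, arsenite raised 12 of the 24 ATF4 and CHOP targets on the arrays, 12 did not pass and none fell, with a median of 0.52. Chac1, which degrades glutathione, went from 6.66, 6.86 and 7.80 to 10.73, 12.15 and 11.54 (4.36 ± 0.23). Ddit3, which encodes CHOP itself, went from 9.32, 8.92 and 9.33 to 12.87, 12.81 and 12.48 (3.53 ± 0.13), and its second probe set rose by 1.17. Trib3, a pseudokinase that binds ATF4, went from 6.28, 5.76 and 7.54 to 9.39, 9.58 and 9.09 (2.83 ± 0.37). Atf4 mRNA rose by 1.69 ± 0.08. The members that did not pass included the amino acid genes Asns (0.30), Phgdh (-0.19), Shmt2 (0.33) and Slc7a5 (0.31), while the transporters Slc7a11 (0.71) and Slc3a2 (1.01) and the folate enzyme Mthfd2 (0.75) rose. Cebpd changed by -0.41 ± 0.37 with overlapping arrays (adjusted p = 0.509).

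The core of the composite C/EBP-ATF element, searched as TGATGNAA on both strands, stood in 7 of the 23 windows of list genes (30.4%) and in 2.66% of the windows of all tested genes. Of the list genes that hold it, Chac1 and Herpud1, which rose, and Asns, which did not pass, are shown, with Atf3 from the early factors.
Chac1 (chr2:119351024-119351081, plus strand): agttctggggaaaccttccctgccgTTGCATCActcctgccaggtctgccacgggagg
Atf3 (chr1:191183411-191183468, minus strand): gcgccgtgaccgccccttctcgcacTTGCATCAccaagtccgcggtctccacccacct
Herpud1 (chr8:94386292-94386349, plus strand): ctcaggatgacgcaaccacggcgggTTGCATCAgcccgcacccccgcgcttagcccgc
Asns (chr6:7693210-7693257, minus strand): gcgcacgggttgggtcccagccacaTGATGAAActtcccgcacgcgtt

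Of 18 genes of eIF2 phosphorylation and its reversal, 2 rose and 2 fell, beside 14.7% called among all genes. Ppp1r15b, which encodes CReP, the constitutive eIF2-alpha phosphatase subunit, went from 10.42, 10.79 and 10.62 to 11.29, 11.34 and 11.25 (0.68 ± 0.08, 1.61-fold). The same gene changed by 0.81 in WT cells, and the difference of -0.13 did not pass (adjusted p = 0.82). Eif2ak2, the kinase PKR, fell from 7.89, 7.96 and 7.97 to 7.04, 7.28 and 7.29 (-0.73 ± 0.10). Eif2s2, the beta subunit of eIF2, rose by 0.30 ± 0.08, but its 6 probe sets spanned -0.20 to 2.29. The kinases Eif2ak1, Eif2ak3 and Eif2ak4 changed by -0.09, 0.16 and 0.06.

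Heat shock proteins and cochaperones rose in KO cells, and they did so unevenly across the experiments. Of 27 measured members 16 rose and none fell, with a median of 0.54. Hspa1a, an inducible HSP70, went from 6.69, 6.71 and 7.06 to 14.44, 14.40 and 13.08 (7.15 ± 0.37, 142-fold). Dnaja4, a J-domain partner of HSP70, went from 7.45, 7.85 and 7.67 to 13.20, 13.06 and 9.65 (4.31 ± 0.64). Experiment 3 reached 9.65, far under the other treated arrays but still above every untreated one. Hspa1b, the neighbouring HSP70 gene, went from 10.44, 10.66 and 10.69 to 14.50, 14.54 and 13.98 (3.74 ± 0.18). Hspa1l went from 4.55, 4.40 and 4.50 to 7.28, 7.30 and 4.27, so it rose in experiments 1 and 2 and stayed under 5.347 in experiment 3, and the change of 1.80 ± 0.56 did not pass (adjusted p = 0.0566). Constitutive members moved little: Hspa8 rose by 0.46 and Hsp90aa1 by 0.44, while Hsp90ab1 (0.32), Hspa9 (0.13) and the factor Hsf1 itself (0.07) did not pass.

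For 25 of these 27 genes the change was lowest in experiment 3. Over all 20753 genes that experiment gave the lowest change for 33% of them, and over the 1376 risen genes for 45.3%. The median change of the list was 0.87, 0.57 and 0.30 in experiments 1, 2 and 3. Hsph1, an HSP70 exchange factor, changed by 3.26, 2.75 and 1.24, the co-chaperone Bag3 by 2.72, 2.65 and 1.17 and the small heat shock protein Hspb1 by 2.54, 2.44 and 1.49. In WT cells experiment 3 was also the lowest for 23 of the 27 genes, with list medians of 0.48, 0.41 and 0.23. Experiment 3 was the lowest in WT cells for 38% of all genes and for 50.8% of the 1376 genes risen in KO cells. Among the risen members of other lists it was the lowest for 5 of 6 ubiquitin and autophagy genes in KO and 6 of 6 in WT cells, for 8 and 9 of 12 ATF4 and CHOP targets, and for all 3 metal response genes in both. Some lists went the other way. It was the lowest for 3 and 2 of 15 risen MAP kinase phosphatase and feedback genes in KO and WT cells. For the NRF2 list the counts were 1 and 2 of 7. None of 7 small GTPase and cytoskeletal genes or 4 mRNA decay genes had it lowest in either genotype. Among the 30 immediate early factors it was the lowest for 8 in KO cells, with list medians of 3.42, 2.78 and 3.19. The treated KO array of experiment 3 also had the highest 3′ minus 5′ signal of Gapdh, 0.246 against 0.0331 and 0.0535 on the other treated KO arrays, a measure of RNA integrity. In WT cells, where the heat shock changes of experiment 3 were also lower, that measure was 0.0811 against 0.0347 and 0.102. Its part in the result was not tested. Without the treated KO array of experiment 3, 19 of the 27 genes passed, and without experiment 1 in all groups 9 did.

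**Figure D3:**
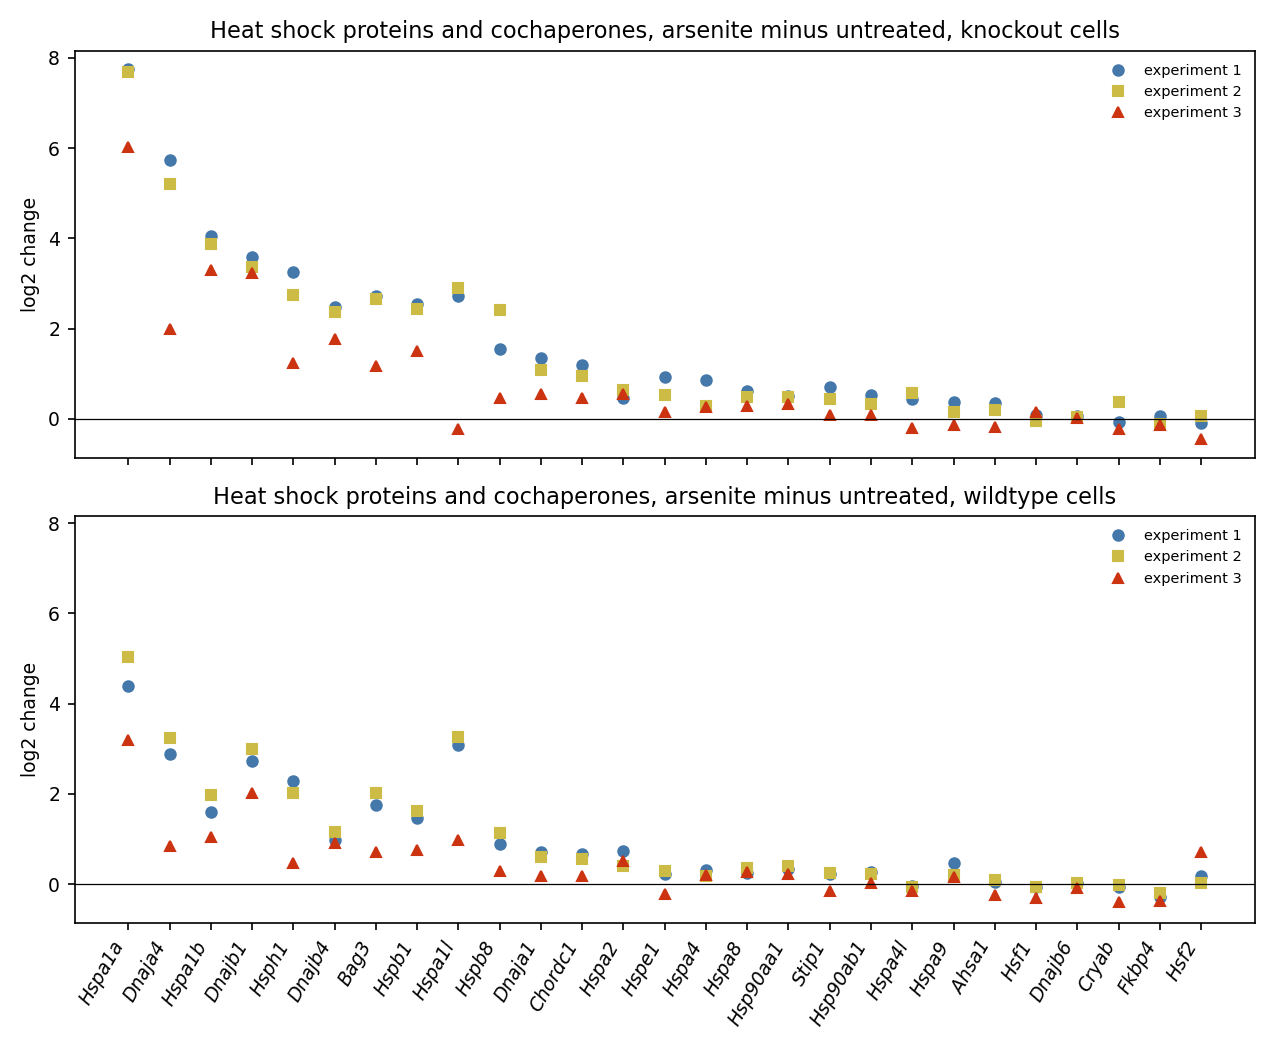
Change under arsenite (log2, arsenite minus untreated) of the 27 heat shock proteins and cochaperones in each of 3 experiments, for knockout cells (top) and wildtype cells (bottom), 1 point per gene and experiment. Experiment 3 (triangles) is lowest for 25 genes in KO and 23 in WT cells, with Dnaja4 at 1.98 against 5.75 and 5.21 in KO cells.

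Paired heat shock units (GAANNTTC or TTCNNGAA) stood in 15 of the 28 windows of list genes (53.6%), against 12.7% of the windows of all tested genes. The share was 14.1% in windows of genes that rose by at least 2-fold. Hspa1a, Dnaja4, Hsph1 and the arsenite-inducible Zfand2a are shown, and the 250 bases upstream of Hspa1a and Hspa1b differ at 3 positions.
Hspa1a (chr17:34972228-34972285, minus strand): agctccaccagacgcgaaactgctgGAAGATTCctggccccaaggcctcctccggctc
Dnaja4 (chr9:54699444-54699539, plus strand): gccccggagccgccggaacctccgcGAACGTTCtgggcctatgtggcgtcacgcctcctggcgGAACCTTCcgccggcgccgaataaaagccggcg
Hsph1 (chr5:149636337-149636394, minus strand): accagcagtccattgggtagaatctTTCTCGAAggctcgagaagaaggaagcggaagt
Zfand2a (chr5:139484655-139484712, minus strand): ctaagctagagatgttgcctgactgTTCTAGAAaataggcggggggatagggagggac

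Zfand2a, also called AIRAP, binds the proteasome and is named for its induction by arsenite. It went from 9.77, 9.77 and 9.78 to 13.21, 14.00 and 11.91 (3.27 ± 0.34, 9.63-fold). Its untreated arrays were nearly equal and its treated ones spread, with experiment 3 again the lowest. Zfand2a had the largest rise among 24 genes of ubiquitin, the proteasome and autophagy, and 6 of the 24 rose and 2 fell (median 0.05). Sqstm1, the autophagy receptor p62, went from 11.69, 11.37 and 11.73 to 13.29, 13.33 and 12.73 (1.52 ± 0.20). Zfand5 rose by 1.46 ± 0.14 on its brightest probe set while another of its probe sets moved the other way. Proteasome subunits changed by -0.31 (Psmb5, past the threshold) to 0.14 (Psmd12).

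Endoplasmic reticulum chaperones did not rise as a group. Of 24 members 3 rose and 4 fell, with a median of -0.14. Dnajb9, a J-domain protein of the endoplasmic reticulum, rose from 10.32, 9.49 and 9.93 to 11.41, 11.00 and 11.59 (1.42 ± 0.16). Sel1l, an adaptor of the degradation ligase, fell by 0.78 ± 0.11 on the log2 scale and Edem1, which sorts glycoproteins for degradation, by 0.65 ± 0.10. For both genes another probe set moved the other way. Hspa5, which encodes BiP, changed by 0.30 and did not pass (adjusted p = 0.0573).

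Metallothioneins and the zinc exporter rose. Of 8 metal response genes 3 rose and 1 fell. Mt2 went from 10.79, 10.23 and 11.31 to 13.88, 14.43 and 13.87 (3.28 ± 0.27), Mt1 from 12.55, 11.87 and 12.80 to 14.22, 14.58 and 14.30 (1.96 ± 0.23), and Slc30a1 from 8.27, 8.43 and 8.77 to 9.38, 10.17 and 9.46 (1.18 ± 0.19). For all 3 genes experiment 2 gave the largest change. Slc39a10, a zinc importer, fell from 10.91, 11.09 and 10.77 to 10.20, 10.36 and 10.25, so the exporter and the importer moved in opposite directions. Mt3 (0.24 ± 0.10) and the factor Mtf1 (-0.09) did not pass. The metal response element core, searched as TGCNCNC with A or G at the first N, stood in 5 of the 8 windows of list genes (62.5%), but also in 32.3% of the windows of all tested genes and in 48.1% of those of genes that fell by at least 2-fold.
Mt1 (chr8:94179041-94179088, plus strand): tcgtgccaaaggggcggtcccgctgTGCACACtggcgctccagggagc
Slc30a1 (chr1:191906713-191906769, plus strand): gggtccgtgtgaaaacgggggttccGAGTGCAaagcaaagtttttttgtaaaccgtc

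Hmox1, the heme-degrading enzyme, stood apart within the NRF2, heme and glutathione list. It went from 8.64, 9.42 and 8.71 to 13.79, 13.98 and 13.34 (4.78 ± 0.17, 27.5-fold). The WT change was 4.85, and the difference of -0.06 did not pass (adjusted p = 0.98). Of the 29 members 7 rose and 1 fell, with a median of 0.05, beside 6.63% risen and 8.07% fallen among all genes. Osgin1 rose by 1.48 ± 0.17, Srxn1, which repairs oxidised peroxiredoxins, by 1.02 ± 0.23 with overlapping arrays, and the glutathione synthesis subunits Gclm and Gclc by 0.80 and 0.65. Nqo1 (0.00), Txnrd1 (0.22) and Gsr (-0.42) did not pass. The glutathione transferase Gstm1 was the 1 member that fell (-0.39).

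Growth arrest and death genes moved both ways. Of 26 members 15 rose and 5 fell, with a median of 0.63. Gadd45g, a stress-induced activator of the p38 and JNK path, went from 10.17, 10.16 and 10.53 to 13.38, 14.22 and 13.70 (3.48 ± 0.28). Pmaip1, the death-promoting NOXA, went from 9.11, 9.88 and 9.74 to 11.71, 12.82 and 12.60 (2.80 ± 0.23). Cdkn1a, which encodes p21, rose by 1.47 and Mdm2 by 0.89. The members that fell were Zmat3 (-1.05), Ccng2 (-0.89), Bcl2 (-0.84), Bcl2l11 (-0.64) and Sesn1 (-0.56). Bcl2 protects cells from death and Bcl2l11, the BIM protein, promotes it, so the fallen members included both kinds. Trp53inp1 changed by -1.12 ± 0.34 with overlapping arrays (adjusted p = 0.0501). Trp53 itself changed by 0.04.

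Zfp36, which encodes tristetraprolin and speeds the decay of AU-rich mRNAs, went from 7.88, 7.72 and 8.00 to 13.21, 12.18 and 13.01 (4.93 ± 0.17, 30.5-fold). Among 18 mRNA decay regulators 4 rose and 4 fell. Dcp2, the decapping enzyme, went from 9.74, 9.75 and 9.32 to 7.99, 7.90 and 8.31 (-1.53 ± 0.16), though its second probe set changed by -0.06. Zfp36l2, a relative of Zfp36, fell by 0.77 on the log2 scale. The paralogs thus moved in opposite directions in KO cells.

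The cholesterol list had 21 members, with a median of 0.43: 11 rose, 1 fell and 9 did not pass. The arrays did not overlap for 6 of the called genes, and without the replicate experiment as a block 3 rose and 1 fell. Insig1, which holds the SREBP factors back, rose by 1.43 ± 0.20 and Cyp51 by 1.23 ± 0.19. Srebf2, which encodes an SREBP factor, rose by 0.81, while Insig2 fell (-0.51). Experiment 2 was the lowest in both groups for Insig1 and Cyp51.

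Feedback and developmental regulators rose in smaller numbers. Of 25 TGF-beta, Notch and Id genes 8 rose and 1 fell (median 0.37), among them Hes1 (1.53 ± 0.24) and Smad7 (1.50 ± 0.12). Smad7, the inhibitory Smad, went from 9.58, 9.69 and 9.64 to 11.06, 11.28 and 11.07. Id2 was the 1 that fell (-0.70). Of 22 small GTPase and cytoskeletal genes 7 rose and 1 fell (median 0.23), among them Cnn1 (1.80 ± 0.30, with overlapping arrays), Rhob (1.38 ± 0.27) and Fhl2 (1.31 ± 0.11). Actb (0.00) and Actg1 (0.09) did not pass. Of 16 clock genes 4 rose and none fell (median 0.12), namely Per1 (1.92 ± 0.23), Nr1d1 (1.68 ± 0.25), Arntl (1.15 ± 0.29) and Ciart (0.86).

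Of 32 histone and DNA methylation enzymes 5 rose and 1 fell, a share close to the 14.7% of all genes, with a median of 0.04. Kdm6b, a demethylase of histone H3 at the Polycomb-modified lysine, went from 9.02, 8.92 and 8.99 to 11.50, 11.13 and 10.39 (2.03 ± 0.18). The deacetylase Sirt1 went from 9.60, 9.73 and 9.53 to 11.49, 11.40 and 10.96 (1.67 ± 0.10), and the demethylase Kdm3a rose by 1.28 ± 0.13. In all 3 genes the treated array of experiment 3 was the lowest treated array. Hdac2 was the 1 member that fell (-0.39).

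Several lists had small medians, from -0.14 to 0.05 against 0.03 for all genes, of which 14.7% were called. Of 23 glucose and hypoxia genes 2 rose and 2 fell (median -0.08): the glucose transporter Slc2a1 rose by 1.97 ± 0.10 and Hk2 by 0.70 ± 0.11, while Gapdh (0.10), Ldha (-0.21) and Pgk1 (-0.16) did not pass. Of 30 matrix, collagen and integrin genes 4 rose and 2 fell (median 0.00), and the integrin subunit Itga5 led with 1.87 ± 0.22. Of 27 interferon-stimulated genes 1 fell and none rose (median 0.05), Ifit2 going from 10.13, 10.32 and 10.38 to 8.79, 9.51 and 9.74. In that list 6 of the 27 genes had a mean under 5.347 over the KO arrays. Of 32 cell cycle genes 5 fell and 1 rose (median -0.14): the centromere proteins Cenpf (-0.79 ± 0.12) and Cenpe (-0.49 ± 0.14), Ccnb2, Ttk and Ccna2 fell, and the mitotic kinase Aurka rose by 0.73 ± 0.15 with overlapping arrays.

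The counts of 9 of the 23 lists moved by over 1.5 times without the replicate experiment as a block. MAP kinase phosphatases and receptor feedback then had 9 rises and 1 fall, and cholesterol genes 3 and 1. The NRF2 list and the small GTPase and cytoskeletal list each had 3 rises and no fall. Endoplasmic reticulum genes had 1 rise and 2 falls, and the cell cycle list 2 falls and no rise. The eIF2, glucose and matrix lists each had 1 rise and 1 fall. The immediate early list kept its count of 27.

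**Figure D4:**
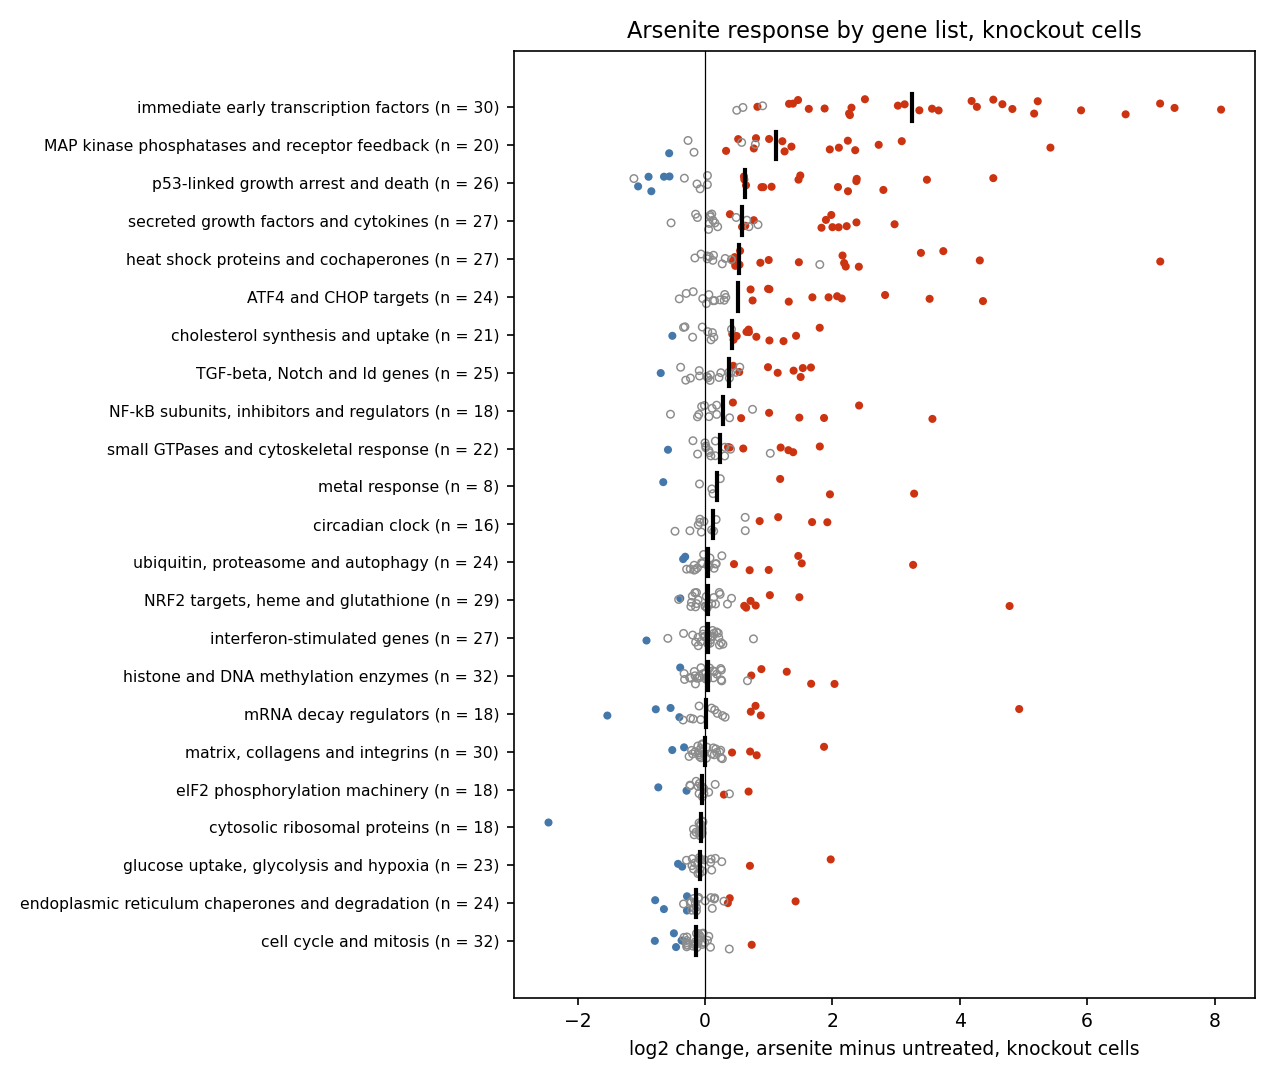
Change under arsenite (log2, arsenite minus untreated) of every measured member of 23 gene lists in GADD34 knockout cells. Filled red and blue points passed the threshold upwards and downwards, open points did not pass, and black bars are list medians, from 3.25 for immediate early factors to -0.14 for cell cycle genes.

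The largest fall was that of Dnm3os, a long RNA read from the strand opposite the gene Dnm3 that is the precursor of microRNAs miR-199a and miR-214. It went from 9.50, 8.51 and 8.85 to 5.80, 5.40 and 5.75, a change of -3.31 ± 0.30 (9.89-fold lower), and its second probe set changed by -3.84. The WT change was -2.24, and the difference of -1.07 did not pass (adjusted p = 0.43). The array reads the host transcript and not the mature microRNAs. RefSeq (GRCm38.p6) places all 4 mature sequences inside the host at chr1:162217623-162225550, plus strand, and each has a different seed (bases 2 to 8, in capitals).
miR-199a-5p: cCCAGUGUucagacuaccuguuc
miR-199a-3p: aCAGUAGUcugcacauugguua
miR-214-5p: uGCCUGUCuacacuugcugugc
miR-214-3p: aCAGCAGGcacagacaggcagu

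Many of the other large falls were of transcripts with provisional names. Among the 15 largest, 2610019E17Rik, 2810455D13Rik, 2610028L16Rik, 2610203C20Rik, 5730408K05Rik, 9930012K11Rik and LOC101056057 fell by 1.75 to 2.51 on the log2 scale. Under arsenite 2610019E17Rik and 2610028L16Rik were under 5.347 on all 3 arrays, so their falls were at least 3.43-fold and 2.78-fold. Fam43a went from 11.21, 9.51 and 11.23 to 8.77, 7.56 and 8.96 (-2.22 ± 0.27). Clec2d, a lectin ligand of natural killer receptors, went from 10.46, 9.07 and 10.07 to 7.40, 6.96 and 8.08 (-2.39 ± 0.27). In both genes experiment 2 had the lowest value before and after treatment.

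Rpl12 went from 8.41, 9.37 and 8.64 to 6.04, 5.95 and 7.02 (-2.47 ± 0.25). It was the 1 ribosomal protein gene of 18 measured that passed, and the other 17 changed by -0.18 to -0.03. Rpl12 was read by 1 probe set, with a mean of 8.81 in untreated KO cells. The list as a whole averaged 13.91 to 14.01 on those arrays. Whether this dimmer probe set follows the main Rpl12 mRNA was not tested. The kinase Taok1 went from 10.19, 10.34 and 10.59 to 8.17, 7.81 and 9.33 (-1.94 ± 0.22) on its brightest probe set, while its 7 probe sets spanned -1.94 to -0.08. The aminopeptidase Lnpep went from 10.80, 10.80 and 11.06 to 8.78, 8.43 and 9.64 (-1.94 ± 0.19), and the zinc finger factor Zbtb44 from 8.62, 8.64 and 9.14 to 6.51, 6.58 and 7.80 (-1.83 ± 0.21). Both genes had another probe set that moved the other way. Of the 15 largest falls 10 were smallest in experiment 3, and so were 70.7% of all 1675 falls. Of the 115 genes named by rule 91 passed the threshold, and 44 of these had more than 1 probe set, and for 25 of the 44 another probe set showed under 50% of the change.

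In WT cells 1013 genes passed (4.88%), 641 up and 372 down. The spread of KO arrays was larger, and each comparison was judged against 1 spread shared by both genotypes. Both lists held 525 risen and 269 fallen genes in common, 81.9% and 72.3% of the WT lists, and 38.2% and 16.1% of the KO lists. The response itself differed between genotypes for 12 genes (0.0578% of those tested), 7 with a higher and 5 with a lower change in KO cells.

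In 4 of the 7 genes with the higher KO change, KO cells started lower and reached the WT level. Hspa1b stood at 10.60 ± 0.14 (SD, n = 3) in untreated KO and at 12.90 ± 0.21 in untreated WT cells, and at 14.34 ± 0.31 and 14.43 ± 0.29 under arsenite. Maff, a small Maf factor, went from 8.84 ± 0.34 to 11.87 ± 0.07 in KO and from 10.46 ± 0.20 to 11.84 ± 0.06 in WT cells. Dusp1 went from 11.10 ± 0.21 to 13.82 ± 0.08 in KO and from 12.36 ± 0.13 to 13.54 ± 0.23 in WT cells. Slc2a1, the glucose transporter GLUT1, went from 10.83 ± 0.15 to 12.81 ± 0.16 in KO and from 11.88 ± 0.05 to 12.75 ± 0.11 in WT cells. In these genes the untreated arrays of the genotypes did not overlap, and the treated ones did.

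The other 3 genes reached a higher level in KO cells. Dusp2 ended at 12.65 ± 0.35 in KO and at 8.73 ± 0.04 in WT cells, from 7.23 ± 0.58 and 6.17 ± 0.05. Egr4 ended at 9.03 ± 0.47 and 7.23 ± 0.13, from 6.73 ± 0.17 and 6.77 ± 0.09. Chaserr, a long noncoding RNA upstream of Chd2, ended at 11.39 ± 0.22 and 9.93 ± 0.24, from 9.54 ± 0.22 and 9.43 ± 0.30. For Egr4 and Chaserr the untreated arrays of the genotypes overlapped and the treated ones did not.

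Of the 5 genes with the lower KO change, Ppp1r15a is the targeted one. Glce, Aff4, Psd3 and C130071C03Rik fell in KO cells by 0.88, 0.89, 1.24 and 1.71 on the log2 scale and changed by -0.02, 0.04, -0.14 and -0.24 in WT cells, where none of them passed. In all 4 of these genes every other probe set showed under 50% of the change. Of these sets 1 of C130071C03Rik moved the other way (0.18), and 1 of Glce stayed near 0 (0.02). C130071C03Rik was under 5.347 on every WT array, so no fall could have been read there, and its mean in treated KO cells, 5.17, was under that mark too. Leaving out 1 array at a time gave 1 to 222 genes with a different response, the 222 without the treated KO array of experiment 3.

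**Figure D5:**
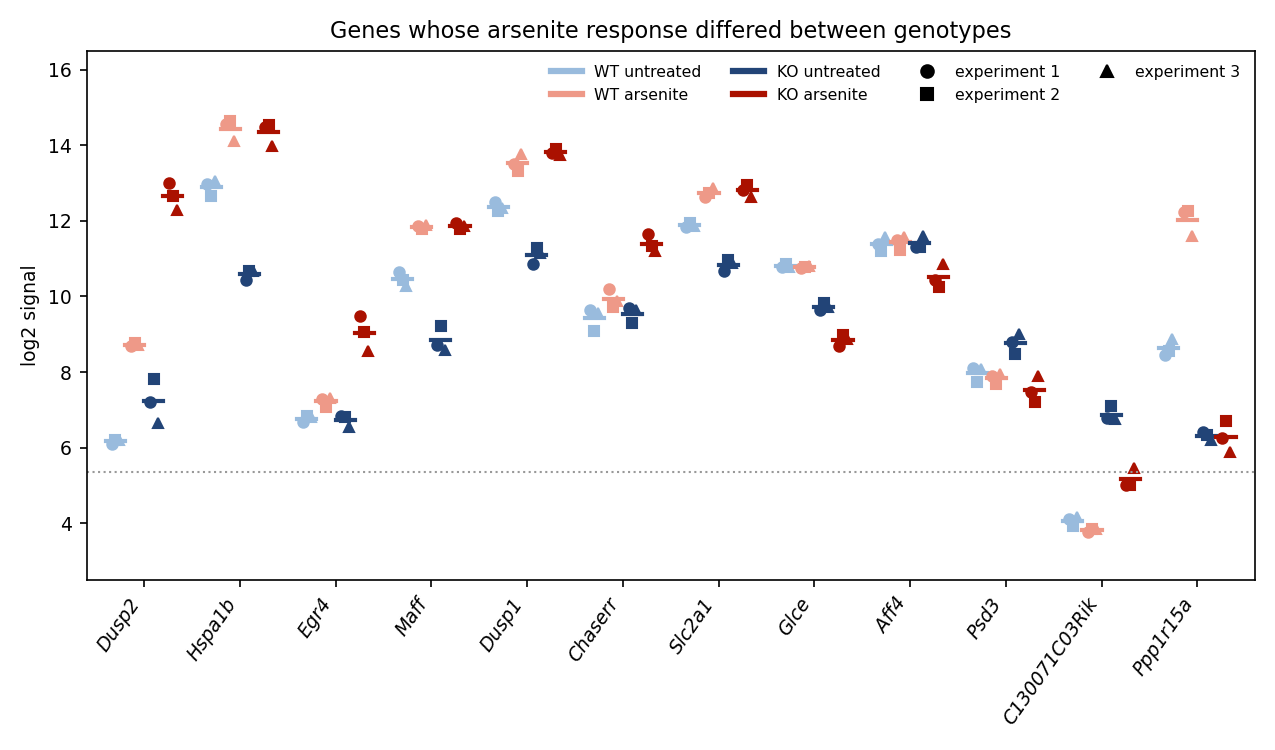
Log2 signal on all 12 arrays of the 12 genes whose arsenite response differed between genotypes (adjusted p under 0.05), with pale colours for WT and dark ones for KO, blue for untreated and red for arsenite, and symbols for experiments. Bars are group means (n = 3) and the dotted line marks 5.347. Hspa1b, Maff, Dusp1 and Slc2a1 start lower in KO cells and end level, while Dusp2, Egr4 and Chaserr end higher.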

How the data were processed

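RNA of 12 cultures was read on 12 Affymetrix Mouse430_2 arrays. The deposited log2 intensities had been made with RMA, per the submitters' processing notes, which give no version. The authors also deposited log2 group means, log2 differences and p-values. The sources used here do not name their test. Their log2 differences equalled those computed here (largest gap 9.0e-09). Groups were taken from the array codes of the full table of 45101 probe sets, per the file headers, because 10 of 12 columns of a shorter deposited table (26382 probe sets) hold another array than their label.

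Control probe sets (64) and those with no symbol (5654) or several (1253) were left out. Of 38130 others 35046 matched RefSeq (GRCm38.p6) by Entrez identifier, and 1200 symbols were updated. The brightest probe set stood for each gene, leaving 20753 genes, 9634 of them with more than 1 probe set. The arrays give no detection call, so dimness was judged only against the 40th percentile. Their number limits the precision.

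All 12 arrays were fitted in 4 groups by limma 3.58.1 (R 4.3.3, statmod 1.5.0), with the replicate experiment as a fixed block (6 residual degrees of freedom). Tests were two-sided and adjusted by Benjamini-Hochberg at 0.05. Replicate numbers pair the arrays: deviations from group means correlated at 0.231 to 0.738 for the 18 pairs of the same number and at -0.575 to -0.0106 for the 36 others, and the series' design text names 3 replicate experiments. In data drawn with known changes in 200 of 20753 genes (5 draws, comparison of KO arsenite with KO untreated) the fit recovered 43.9%, 89.3% and 97.9% of log2 changes of 0.5, 1 and 2, with 5.76% of calls false. The draws used normal noise with 1 spread per gene for both genotypes. In the data the KO arrays spread more than the WT arrays, and 14.7% of genes were called. These shares therefore describe the fit under its own assumptions and need not hold for the KO comparison.

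Genes named were Ppp1r15a, the 15 largest rises and 15 largest falls without overlap, the 5 largest differences between genotypes in each direction, and in each of 23 lists at most 3 called members and 1 uncalled, 115 in all. Other members, and Chaserr, were named after their values were seen. The comparison, its members and the lists were chosen with earlier results of these data known. Alternatives changed the block, scaling, probe set choice, threshold, arrays used and prior. Motifs were searched as written letters. Some of the genes named by the rule are not reported here.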

Additional observations from a re-analysis of the deposited data

Results flagged for a closer look

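The arsenite response differed between genotypes by the interaction test for 12 genes, and 11 of them belong to the genes named by rule. Values are the KO change minus the WT change on the log2 scale. Dusp2 differed by 2.86 (KO 5.42, WT 2.56), Hspa1b by 2.21 (3.74 and 1.54), Egr4 by 1.83 (2.30 and 0.47), Maff by 1.64 (3.03 and 1.39), Dusp1 by 1.55 (2.73 and 1.18) and Slc2a1 by 1.11 (1.97 and 0.87), all with the larger rise in KO cells. Glce differed by -0.86 (-0.88 and -0.02), Aff4 by -0.93 (-0.89 and 0.04), Psd3 by -1.10 (-1.24 and -0.14) and C130071C03Rik by -1.47 (-1.71 and -0.24). All WT arrays of C130071C03Rik and its treated KO mean, 5.17, were under the dim mark of 5.347, so its fitted values are not measured sizes. Ppp1r15a, the deleted gene, differed by -3.43 (-0.03 and 3.40). In each of these genes the 3 KO changes lay on 1 side of the 3 WT changes. The genes were chosen by the test of that difference, so this adds no support. The adjusted p-values were 0.00368 for Ppp1r15a, 0.0182 for Dusp2, 0.0219 for Hspa1b and 0.0286 to 0.0328 for the rest.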

How the results depend on the processing

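The count of 3051 genes changed by arsenite in KO cells was 1566 without the replicate block, 476 in KO arrays alone without it, 1468 at an adjusted p under 0.01, and 1779 to 2838 with 1 array left out (1779 without untreated KO array 1, 1979 without untreated 2, 1884 without treated 1, 1984 without treated 2). Without a whole replicate experiment in all 4 groups, an alternative added after seeing the data, 899 (experiment 1), 1303 (2) and 1875 (3) genes passed. Over all other alternatives except the 2 below it stayed within 1.5 times. The authors' unadjusted p-values, adjusted here over the same genes, gave 21 (3229 at an unadjusted p under 0.05, of which 1996 are called here). The count of 12 genes with a different response was 7 without the replicate block, 107 with the block within each genotype, 19 with the replicate as a random effect, 28 with median centring, 22 without probe sets that may cross-hybridise, 46 with a trended and robust prior, 1 at 0.01, and 1 to 222 with 1 array left out. It was 0, 6 and 1 without experiment 1, 2 and 3, the 0 from limma with 1193 genes at an unadjusted p under 0.05.

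Grouping the arrays by the displaced columns of the shorter table gave 0 genes for both by limma (135 and 201 at an unadjusted p under 0.05), and changes turned sign there: 2610019E17Rik 0.16, 2610028L16Rik 0.14, 2810455D13Rik 0.18, Aff4 0.18, C130071C03Rik 0.13, Cebpd 0.85, Cenpe 0.27, Cenpf 0.093, Cxcl10 -0.11, Cyp51 -0.012, Dcp2 0.16, Dnaja4 -0.15, Edem1 0.0003, Edn1 -0.081, Egr4 -0.014, Eif2ak2 0.049, Eif2b2 -0.10, Fhl2 -0.047, Glce 0.017, Ifit1 -0.14, Lnpep 0.22, Mt3 -0.052, Pan2 0.046, Ppp1r15a 0.82, Psd3 0.074, Sc5d -0.082, Srxn1 -0.12, Taok1 0.35, Tnc -0.28, Trp53inp1 0.49 and Zbtb44 0.23. Among the other alternatives the change of Ppp1r15a, near 0, was the 1 that turned sign, at -0.22 to 0.12 with 1 array left out and at 0.026 and 0.11 without experiment 1 and 3. Of the counts of members past the threshold in the 23 lists, 566 stayed within 1.5 times and 101 did not. Of the latter 9 were without the replicate block, and those without 1 array touched 8 lists. The matrix count of 6 was 1 without treated KO array 1 or untreated KO array 2 and 2 without treated 2 or untreated 1. The cell cycle count of 6 was 1, 2 and 3 without untreated KO 1, treated KO 1 and untreated KO 2. The eIF2 count of 4 was 2 without KO array 1 or 2 of either group, untreated WT 2 or treated WT 1. The endoplasmic reticulum count of 7 was 3 without treated KO 1 or untreated KO 2 and 4 without any other KO array. The small GTPase and cytoskeletal count of 8 was 4 and 5 without untreated and treated KO 3, the NRF2 count of 8 was 5 without untreated KO 2, the ubiquitin count of 8 was 5 without treated KO 1, and the interferon count of 1 was 2 without treated KO 2 or 3, untreated KO 1 or untreated WT 1. Of the named genes' other changes under those alternatives, 3142 kept direction and side of the threshold, 113 lost the call and 74 gained it.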

Other observations

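Classes of genes read from their symbols, chosen after values were seen, were called at different shares beside the 14.7% of all genes. Of 343 measured Zfp zinc finger genes 49 rose (14.3%, against 6.63% of all genes) and 54 fell (15.7%, against 8.07%), so 30% were called, with a median change of -0.01. Of 355 solute carriers (Slc symbols) 34 rose (9.58%) and 21 fell (5.92%). Of 2643 Rik transcripts, most without an assigned function, 83 rose and 113 fell, or 7.42%. The classes were not matched for signal level. Of all genes, 10.9% rose and 16.2% fell in the brightest of 5 bins, and 1.69% and 0.94% in the dimmest. The small nucleolar RNA genes Snord104 and Snord89 fell by 1.24 and 0.69 on the log2 scale. Of the 290 genes that rose by at least 2-fold, 25 (8.62%) had an untreated mean under 5.347, so most large rises started above that mark. A mean above it is no detection call: the probe set of the targeted Ppp1r15a had a mean of 6.32 in untreated KO cells. Of the 140 genes that fell by at least 2-fold, 19 had a treated mean under that level.

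Genes called in WT cells give a set chosen without the KO arrays' own differences, although the block and the spread are shared. The 641 genes that rose in WT cells had median KO changes of 0.80, 0.75 and 0.69 in experiments 1, 2 and 3, and median WT changes of 0.79, 0.76 and 0.67. The 372 genes that fell had median KO changes of -0.49, -0.53 and -0.36. Of 210 genes that rose by at least 2-fold in WT cells, 196 passed upwards in KO cells, and 1 gene passed in opposite directions in the 2 genotypes.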
